A study of Mus musculus with 4 samples.

Results

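The genes described here are 34 genes of the unfolded protein response and of the chaperone system of the endoplasmic reticulum (ER), taken by symbol from a named list that was put together with earlier results of these data known. Each of the 34 symbols matched 1 Ensembl gene among the 41214 genes in the count tables. All 34 also passed the filter on low counts, which left 15063 genes to test.

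Secreted and membrane proteins enter the ER through the SEC61 channel, lose their signal peptide, and fold with the help of chaperones, lectins that read sugar chains, and enzymes that form disulfide bonds. Proteins that fail to fold are returned to the cytosol and degraded. When unfolded protein accumulates, the sensors IRE1 (encoded by Ern1), PERK (Eif2ak3) and ATF6 start the unfolded protein response: IRE1 splices the Xbp1 mRNA, PERK slows translation and raises ATF4, and ATF6 is cut to release a transcription factor. XBP1 and ATF6 are known to act through the ER stress element of chaperone promoters, and ATF4 through a composite C/EBP-ATF element. Megakaryocytes carry a large load of this work, since they fill granules and an extensive membrane system before they shed platelets.

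RNA was sequenced from megakaryocytes of C57Bl/6 mice aged 8 weeks, sorted from the long bones of the leg and upper arm as lineage-negative cells with cKit, CD41 and CD61 on their surface. The 4 groups, each with 1 library, were Gfi1b wild-type and Gfi1b knockout with PF4-Cre and the same pair of genotypes with ROSA-Cre, so the wild-type groups are also labelled with a Cre. Pf4 is a gene active in megakaryocytes, the labels give no further detail of ROSA-Cre, and they do not say whether mice were pooled. GFI1B is a repressor of transcription on which the megakaryocyte and red cell lineages depend, and the design compares its wild-type and knockout state in both models.

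Gene counts per library ran from 21835165 to 61652843, with both ROSA-Cre libraries below both PF4-Cre libraries, and a count of 0 allowed a level of at most 0.0487 to 0.137 CPM (counts scaled to the library total). Gfi1b itself had 10137 and 84744 counts in the PF4-Cre wild-type and knockout libraries, and 5864 and 55122 in the ROSA-Cre wild-type and knockout libraries. It was therefore higher in both libraries labelled knockout (log2 fold change 3.21, SE 0.17, Benjamini-Hochberg adjusted p = 0.000141 by the quasi-likelihood test of edgeR). Which exons are deleted is not given in the sources used here, so a count over the whole gene does not check the labels, and every direction below rests on them: "knockout" means the library labelled knockout. Of the megakaryocyte markers, 16 of 16 were detected in every library, with Itga2b, which encodes CD41, at 2381 and 2469 CPM in the wild-type and knockout of PF4-Cre and 3569 and 2154 CPM in those of ROSA-Cre. Values in groups of 4 below follow that order, and CPM of genes are on library sizes scaled by edgeR's TMM method.

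Most of the chaperone machinery was lower in the knockout libraries, while Ern1, Ppp1r15a and Nupr1 were higher. Of the 34 genes, 19 (55.9%) fell, against a background of 9.58% of the 15063 tested genes, and 3 (8.82%) rose, against a background of 12.6%. The other 12 did not pass the test. The median log2 fold change of the 34 genes was -0.51, against -0.02 over all tested genes. By role, the genes that fell were 2 of 3 major chaperones, 2 of 2 lectin chaperones, 4 of 4 disulfide isomerases, 3 of 4 cochaperones, 2 of 2 secreted ER factors, 3 of 4 protein entry genes, 1 of 4 degradation genes, 1 of 3 transcription factors, 0 of 3 sensors and 1 of 5 targets of the ATF4 arm. In edgeR's unadjusted p-values under 0.05, and in the DESeq2 Wald test, 0 of the 3 sensors were lower as well. The genes together took 1.12%, 0.882%, 0.993% and 0.536% of the TMM-scaled library sizes, so the ROSA-Cre knockout library was the lowest of the 4.

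Each p-value rests in part on how well the 2 Cre models repeat the genotype difference, with 2 libraries per genotype and 1 residual degree of freedom. The variance of each gene was also moderated with that of the other tested genes (6.26 prior degrees of freedom). All of this spread is between these libraries only. In sorted bulk cells, fewer cells of a type and less RNA per cell cannot be told apart. Without the filter on low counts 2 of the 19 falls remained (P4hb and Manf), and without the Cre model term 0 did, with 9 members lower at an unadjusted p under 0.05. With 1 library left out and the Cre model term dropped, 2 members fell without the PF4-Cre wild-type library, 6 without the PF4-Cre knockout, 1 without the ROSA-Cre wild-type and 0 without the ROSA-Cre knockout, where 8, 17, 5 and 2 were lower at an unadjusted p under 0.05. The DESeq2 Wald test called 19 members lower, 18 of them shared.

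**Figure D1:**
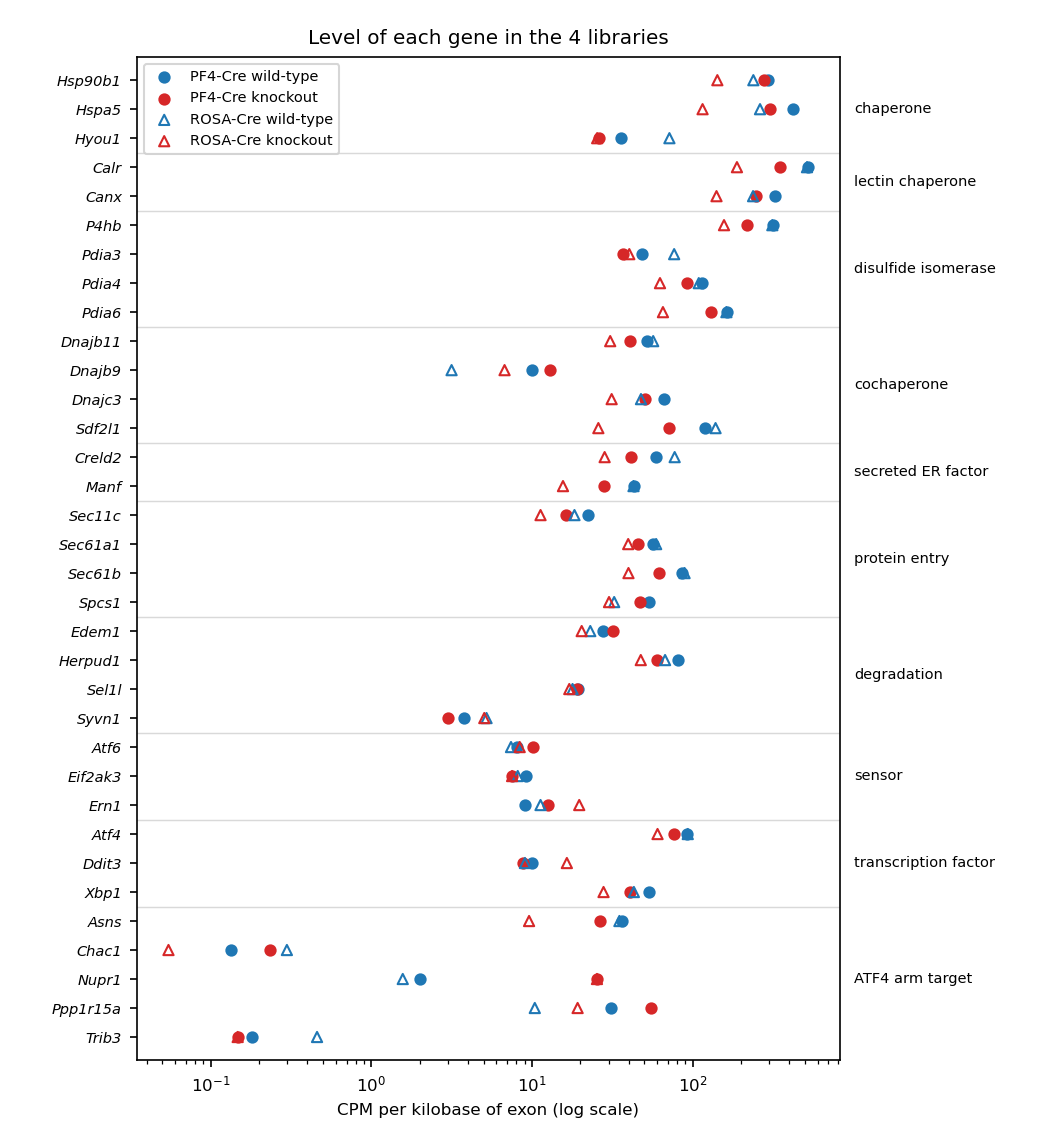
Level of each of the 34 genes in each of the 4 libraries, in CPM per kilobase of exon on a log axis, with genes ordered by role and 1 point per library. Calr is the highest gene in all 4 libraries, and Trib3 and Chac1 sit at the bottom.

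Of the 3 major chaperones 2 fell. Hspa5, which encodes BiP, the ER HSP70 that binds unfolded chains and holds the sensors inactive, had 1781, 1278, 1110.0 and 487 CPM. Each knockout library was below its own wild-type, but the PF4-Cre knockout was above the ROSA-Cre wild-type, so the genotypes overlapped across models. Its log2 change was -0.83 (SE 0.20, Benjamini-Hochberg adjusted p = 0.0284 by edgeR's quasi-likelihood test, as for all adjusted p-values below). Hyou1, an ER HSP70-like protein that acts with BiP, had 258, 188, 518 and 184 CPM, with both knockout libraries below both wild-types and nearly equal to each other. It fell by 0.97 (SE 0.23, adjusted p = 0.0263, edgeR). Hsp90b1, the ER HSP90 also called GRP94, had 1184, 1123, 962 and 574 CPM, and its difference of -0.41 (SE 0.19, adjusted p = 0.166, edgeR) did not pass the test. Its overlap with an opposite-strand pseudogene covers 415 exonic bases, and whether the counting used strand is not given in the sources used here.

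The lectin chaperones calreticulin and calnexin, which hold glycoproteins until they are folded, both fell. Calr had 1504, 1012, 1482 and 543 CPM, so the wild-types were close and both knockouts lay below them. Its log2 change was -1.01 (SE 0.23, adjusted p = 0.0218, edgeR). Canx had 1528, 1155, 1115 and 660 CPM and a log2 change of -0.58 (SE 0.16, adjusted p = 0.0435, edgeR), with the PF4-Cre knockout slightly above the ROSA-Cre wild-type. All 4 protein disulfide isomerases fell, with P4hb, the archetype of the family, at 902, 620, 896 and 448 CPM (log2 change -0.77, SE 0.16, adjusted p = 0.018, edgeR). Pdia6, an isomerase that works beside BiP, had 614, 489, 607 and 245 CPM, Pdia3, the partner of the lectins, 152, 116, 241 and 127 CPM, and Pdia4 274, 223, 262 and 150 CPM. In these 4 genes both knockout libraries lay below both wild-types, and their log2 changes ran from -0.82 to -0.55.

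Of the 4 cochaperones, which recruit substrates to BiP or set its cycle, 3 fell. Sdf2l1, a partner of the DNAJ cochaperones, had 132, 78.6, 154 and 28.7 CPM, so the ROSA-Cre knockout was lowest and the genotypes did not overlap. Its log2 change of -1.56 (SE 0.35, adjusted p = 0.0217, edgeR) was the lowest of the 34 genes, and the DESeq2 Wald test did not call it. Dnajb11 (169, 132, 184 and 99.2 CPM) and Dnajc3 (341, 260, 245 and 161 CPM), J-domain proteins that deliver unfolded chains to BiP, fell by 0.62 and 0.50 on the log2 scale. Dnajb9, the J-domain protein ERdj4, had 25.4, 33.0, 8.04 and 17.2 CPM, higher in the knockout of each model. Its log2 difference of 0.69 (SE 0.22, adjusted p = 0.0627, edgeR) did not pass, and it passed in the DESeq2 Wald test. The secreted ER factors Manf (153, 98.9, 151 and 54.9 CPM) and Creld2 (80.2, 56.7, 105 and 38.7 CPM) fell by 1.04 and 0.96, each with both knockouts below both wild-types. Manf shares 146 exonic bases with Dcaf1 on the opposite strand.

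The start regions of the fallen genes are shown because several carry the element that XBP1 and ATF6 are known to use. RefSeq windows of 300 bases (GRCm38.p6, from 250 before to 50 after the annotated start) were found for 29 of the 34 genes. The ER stress element (ERSE) was searched as CCAAT, 9 bases, CCACG, and ERSE-II as ATTGG, 1 base, CCACG, on both strands. ERSE occurred in 8 of the 29 windows (Calr, Canx, Creld2, Dnajc3, Hsp90b1, Hspa5, Pdia6 and Syvn1) and in 0.119% of all 32851 windows. ERSE-II occurred in Dnajb11 and Herpud1 and in 0.0365% of all windows, and the matches in these windows did not overlap one another. The 250 bases before the start are printed for Hspa5 (chr2:34771840-34772089, plus strand), Calr (chr8:84846932-84847181, minus strand) and Herpud1 (chr8:94386179-94386428, plus strand), read along the gene with matched motif letters in capitals. In GENCODE M21 the Hspa5 gene begins 5' of the RefSeq start, at position 34771970, so part of the printed stretch lies inside that gene model. The capitals in Herpud1 mark a C/EBP-ATF element, then ERSE-II.
Hspa5: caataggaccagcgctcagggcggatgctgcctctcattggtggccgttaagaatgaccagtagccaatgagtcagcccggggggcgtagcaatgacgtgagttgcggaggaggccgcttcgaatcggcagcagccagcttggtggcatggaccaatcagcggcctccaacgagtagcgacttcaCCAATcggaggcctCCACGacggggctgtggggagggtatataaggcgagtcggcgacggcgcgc
Calr: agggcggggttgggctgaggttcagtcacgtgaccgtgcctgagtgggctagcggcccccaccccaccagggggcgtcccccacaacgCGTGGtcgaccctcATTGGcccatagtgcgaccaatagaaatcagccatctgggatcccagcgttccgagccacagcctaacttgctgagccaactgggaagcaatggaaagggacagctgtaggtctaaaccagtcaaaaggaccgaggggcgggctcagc
Herpud1: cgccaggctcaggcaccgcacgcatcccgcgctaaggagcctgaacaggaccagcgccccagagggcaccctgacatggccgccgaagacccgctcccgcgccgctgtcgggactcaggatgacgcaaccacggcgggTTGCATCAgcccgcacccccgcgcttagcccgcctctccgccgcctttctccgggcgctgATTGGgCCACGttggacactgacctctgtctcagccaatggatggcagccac

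The matches alone are printed along each gene's strand, with the letters fixed by the search in capitals, so only the bases between them could vary. Those in Calr, Creld2 and the second of Hsp90b1 run in the opposite orientation, so they open with CGTGG.
Hspa5: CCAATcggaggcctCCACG
Pdia6: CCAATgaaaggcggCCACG
Canx: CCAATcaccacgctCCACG
Dnajc3: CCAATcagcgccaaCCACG
Syvn1: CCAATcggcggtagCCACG
Hsp90b1, first: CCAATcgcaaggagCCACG
Hsp90b1, second: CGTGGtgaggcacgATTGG
Calr: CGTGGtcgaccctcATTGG
Creld2: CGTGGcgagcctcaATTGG
Dnajb11: ATTGGcCCACG
Herpud1: ATTGGgCCACG

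The first base of the match lay 65 bases before the start in Hspa5, 98 in Pdia6, 105 in Dnajc3, 44 in Syvn1 and 162 in Calr, and at base 7 after the start in Dnajb11. Of the 10 genes with either element 8 fell and 2 did not pass the test (Hsp90b1 and Syvn1), with a median log2 change of -0.60. Of the 19 genes with a window but neither element, 7 fell, 3 rose and 9 did not pass, with a median of -0.21. These 19 include the sensors Ern1 and Eif2ak3 and all targets of the ATF4 arm, so the contrast mixes element and role. Among the disulfide isomerases, Pdia3, Pdia4 and P4hb fell without either element and Pdia6 fell with one. Among the cochaperones without an element, Sdf2l1 fell and Dnajb9 did not pass, and Dnajb11 and Dnajc3 fell with one. Of the genes without a window, Hyou1, Manf, Sec61a1 and Sec11c fell and Atf6 did not pass. Outside the set, an addition made after the data were seen, 39 genes had either element, of which 18 were tested. Of these, 0 fell and 4 rose (Adcy3, Lgalsl, Lrif1 and Zfp57) in edgeR, with 3 lower at an unadjusted p under 0.05 and 2 lower in DESeq2, and their median was -0.01. The UPRE core TGACGTGG was in 0 of the 29 windows and in 0.676% of all windows. A match is a description of letters, not of a bound site.

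**Figure D2:**
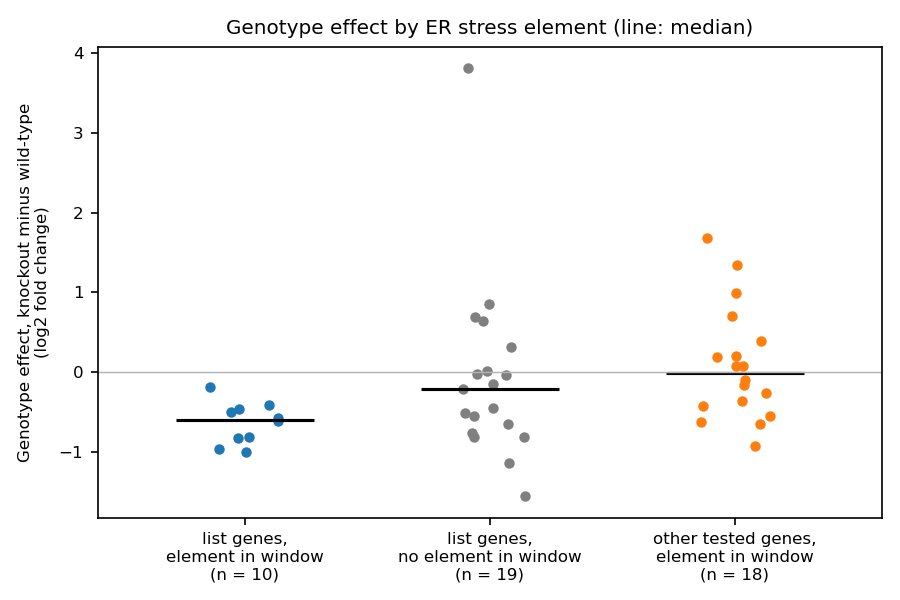
Genotype log2 fold change (vertical axis, knockout minus wild-type) of member genes with and without ERSE or ERSE-II in the start window and of other tested genes with an element, with 1 point per gene and the median as a line. The 10 member genes with an element all lie below 0, the 19 without lie on both sides, with Nupr1 at 3.81, and so do the 18 other genes.

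Of the 4 protein entry genes 3 fell. Sec61a1, the pore of the translocation channel, had 382, 308, 399 and 267 CPM (log2 change -0.45, SE 0.13, adjusted p = 0.0485, edgeR), and Sec61b, a small subunit of the same channel, 110, 78.6, 113 and 50.6 CPM (-0.81, SE 0.18, adjusted p = 0.0199, edgeR). Sec11c, a catalytic subunit of the signal peptidase, had 151, 111.0, 125 and 76.9 CPM and fell by 0.57. In these 3 genes both knockout libraries lay below both wild-types. Spcs1, another signal peptidase subunit, had 82.8, 72.6, 50.2 and 46.6 CPM and did not pass (-0.15, SE 0.13). Spcs1 shares 252 exonic bases with Glt8d1 on the opposite strand, and Sec61b resembles Gm10320 at 98.3% identity over 474 bases, a gene with 16 to 113 counts per library.

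Among degradation genes, Herpud1, a membrane protein of the retrotranslocation complex, fell while the ubiquitin ligase core did not pass the test. Herpud1 had 188, 140, 157 and 111 CPM, with no overlap of genotypes and nearly equal ratios in the models, 0.747 with PF4-Cre and 0.706 with ROSA-Cre. Its log2 change was -0.46 (SE 0.12, adjusted p = 0.0321, edgeR). Sel1l, the adaptor of the ligase, had 165, 163, 153 and 146 CPM (-0.04, SE 0.12), and Syvn1, the ligase HRD1, 18.3, 14.6, 25.3 and 24.5 CPM (-0.19, SE 0.18). Edem1, which pulls misfolded glycoproteins into degradation, had 178, 204, 149 and 131 CPM, higher in the knockout with PF4-Cre and lower with ROSA-Cre.

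Of the 3 sensors 1 rose and 0 fell. Ern1, which encodes IRE1, had 73.8, 103, 92.3 and 161 CPM, with both knockouts above both wild-types, and a log2 rise of 0.64 (SE 0.13, adjusted p = 0.0175, edgeR). Atf6 had 74.5, 94.2, 68.3 and 77.3 CPM, also with both knockouts higher, but its value of 0.26 (SE 0.13, adjusted p = 0.179, edgeR) did not pass. Eif2ak3, which encodes PERK, had 55.6, 45.2, 49.1 and 45.3 CPM (-0.21, SE 0.14). Of the transcription factors, Xbp1, the product of the IRE1 arm, had 175, 132, 140 and 90.5 CPM and fell by 0.51 (SE 0.12, adjusted p = 0.0274, edgeR). These are counts over the whole gene, which do not separate spliced from unspliced Xbp1 mRNA. Atf4 had 216, 179, 220 and 142 CPM, with both knockouts lower, and its value of -0.45 (SE 0.13, adjusted p = 0.0525, edgeR) did not pass but did in the DESeq2 Wald test.

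Ddit3, which encodes CHOP, a factor of prolonged ER stress, had 17.1, 15.1, 15.5 and 28.2 CPM, so the ROSA-Cre knockout stood above the other 3 libraries. Its difference between genotypes did not pass the test (0.32, SE 0.27). Its knockout to wild-type ratio was 0.882 with PF4-Cre (95% counting interval 0.806 to 0.966) and 1.82 with ROSA-Cre (1.60 to 2.08). Ddit3 shares 68 exonic bases with Mars on the opposite strand.

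The targets of the ATF4 arm split. Nupr1, a small chromatin-associated stress protein, had 301, 3839, 97 and 1428 counts, which is 5.03, 63.4, 3.94 and 63.7 CPM. Both knockout libraries were far above both wild-types and nearly equal to each other, with ratios of 12.6 and 16.2 in PF4-Cre and ROSA-Cre. Nupr1 rose with a log2 change of 3.81 (SE 0.18, adjusted p = 0.000106, edgeR), the largest value of the 34 genes, and passed the test with any 1 library and the Cre model term left out. Its 250 bases before the RefSeq start (chr7:126625471-126625720, minus strand) hold the C/EBP-ATF element TTGCATCA, in capitals, which also occurs in the windows of Herpud1 and Chac1 and in 0.895% of all windows. The stretch lies inside the longer GENCODE M21 gene model of Nupr1.
Nupr1: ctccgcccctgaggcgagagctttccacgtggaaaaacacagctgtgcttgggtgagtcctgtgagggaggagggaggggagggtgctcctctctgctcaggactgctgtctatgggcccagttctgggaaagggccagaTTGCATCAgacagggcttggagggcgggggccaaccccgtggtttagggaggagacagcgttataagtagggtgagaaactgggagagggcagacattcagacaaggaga

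Ppp1r15a, the phosphatase subunit GADD34 that lets translation resume, had 91.6, 162, 30.5 and 56.4 CPM. It was higher in each model's knockout by nearly the same ratio (1.77 and 1.85), although the PF4-Cre wild-type exceeded the ROSA-Cre knockout, and it rose by 0.85 (SE 0.12, adjusted p = 0.0053, edgeR). Without the PF4-Cre knockout library and the Cre model term its value was -0.12, and it then did not pass. Asns, asparagine synthetase, had 99.7, 72.1, 95.7 and 26.2 CPM and fell by 1.14 (SE 0.30, adjusted p = 0.034, edgeR), against the direction of Nupr1 and Ppp1r15a. Trib3, a pseudokinase, and Chac1, which degrades glutathione, were near the limit of detection, with 23, 19, 24 and 7 counts and 13, 23, 12 and 2 counts. Neither passed the test. The ratio of Trib3 was 0.816 with PF4-Cre (95% counting interval 0.420 to 1.57) and 0.321 with ROSA-Cre (0.117 to 0.767), and that of Chac1 was 1.75 (0.849 to 3.76) and 0.183 (0.0199 to 0.823), intervals that allow a wide range of differences at this depth.

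Within each model the falls were shallower with PF4-Cre than with ROSA-Cre. The 19 fallen genes were 1.23-fold to 1.68-fold lower with PF4-Cre (median 1.36) and 1.42-fold to 5.36-fold lower with ROSA-Cre (median 2.0). All 19 were lowered more with ROSA-Cre, and in 18 the 95% counting intervals of the ratios did not overlap. For Hspa5 the ratios were 0.718 and 0.439, for Calr 0.672 and 0.366, and for Sdf2l1 0.595 and 0.186. Of the 34 genes, 26 (76.5%) had a lower ratio with ROSA-Cre, against 46.9% of all tested genes, and 26 (76.5%) were below 1 in both models, against 40.7%. Neither share was particular to these genes. Over the other pathway lists described below, the first ran from 23.5% (sensors and cofactors) to 81.6% (stress response), with 75% for translocation. The second ran from 41.2% (sensors and cofactors) to 87.5% (translocation), with 75.5% for the stress response. Dividing-cell markers had 87.5% and 100%. The difference between the models could not be tested, because 1 library per group leaves no residual degree of freedom for it, and counting intervals cover counting error only. In CPM, both knockout libraries lay below both wild-types in 19 genes, against a background of 23.7%, above them in 3, against 23.4%, and the genotypes overlapped in 12. The 19 without overlap and the 19 that fell share 16 genes.

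**Figure D3:**
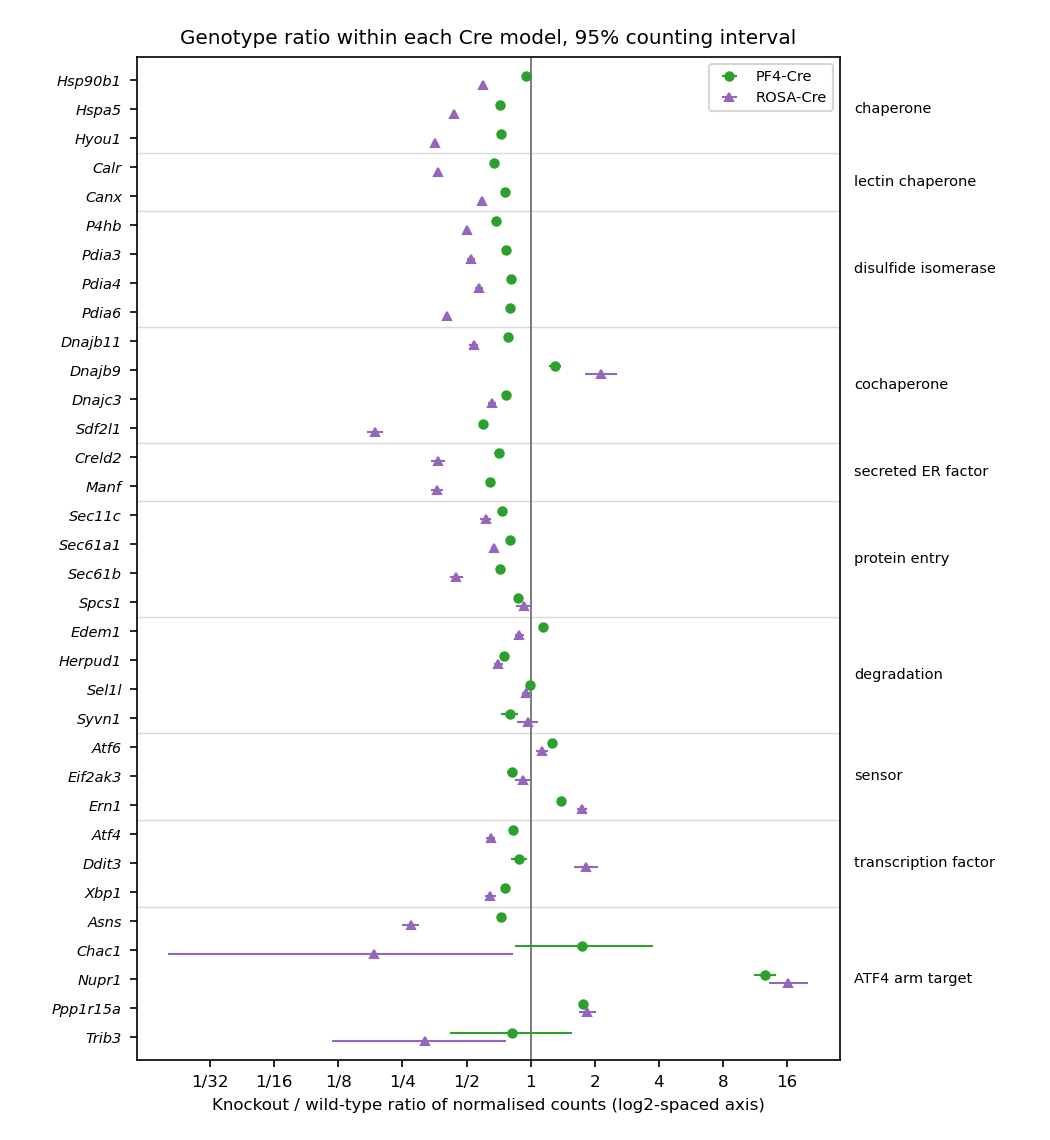
Knockout to wild-type ratio of TMM-normalised counts for each gene within PF4-Cre and ROSA-Cre, on a log2-spaced axis with 95% counting intervals. Most ROSA-Cre points lie left of the PF4-Cre points, and Nupr1 lies far right at 12.6 and 16.2.

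Some genes also differed between the Cre models at equal genotype. Lower in ROSA-Cre were 6 of the 34 genes, against a background of 10.4% of tested genes, and higher was 1, against 8.32%. The log2 difference was -1.55 for Ppp1r15a (SE 0.12, adjusted p = 0.00231), -1.28 for Dnajb9 (SE 0.22, adjusted p = 0.012) and -1.04 for Hspa5 (SE 0.20, adjusted p = 0.017), all in edgeR. The others were Spcs1 (-0.68), Canx (-0.63) and Dnajc3 (-0.58), and Ern1 was the gene higher in ROSA-Cre (0.48, SE 0.13, adjusted p = 0.0445, edgeR). With an offset for GC content and exonic length, only Ppp1r15a of the 6 and not Ern1 passed, while 19 falls and 3 rises by genotype remained. The models also differed in depth, and model, depth and any difference in preparation cannot be told apart.

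**Figure D4:**
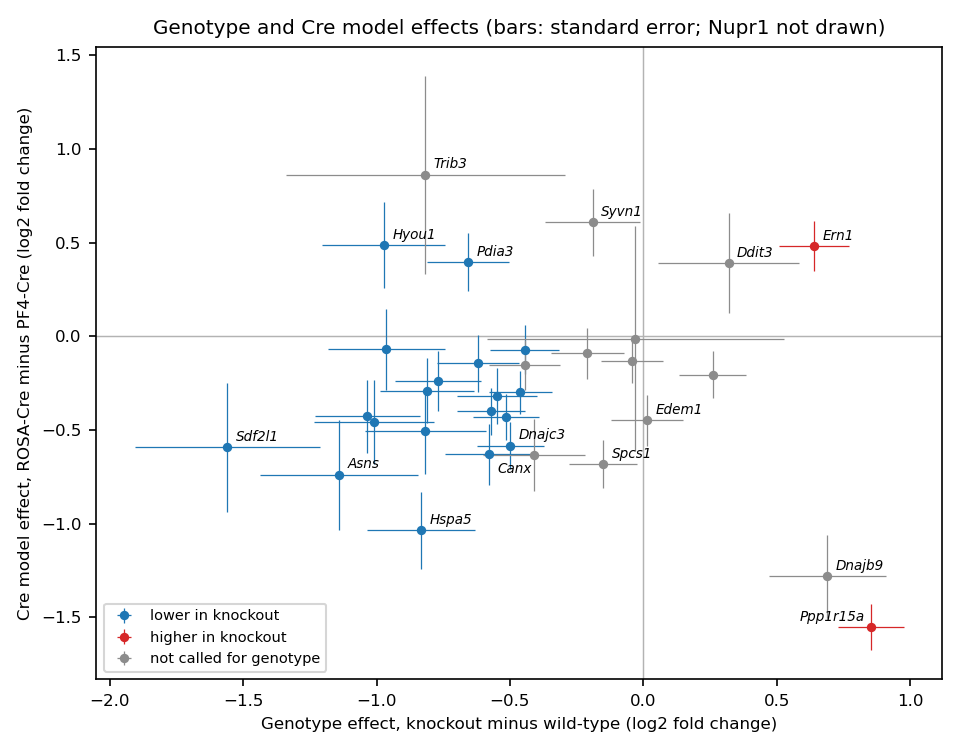
Genotype log2 fold change (horizontal axis, knockout minus wild-type) against Cre model log2 fold change (vertical axis, ROSA-Cre minus PF4-Cre) for each gene, with standard errors as bars and colour showing the genotype call. Nupr1, at 3.81 on the horizontal axis, is not drawn. Ppp1r15a and Dnajb9 sit at the lower right and Hspa5 at the lower left.

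In the other lists of the ER pathway smaller shares of the genes fell. Among 39 tested genes of other ER folding factors 5 fell (12.8%, background 9.58%) and 3 rose (7.69%, background 12.6%), shares near those of all tested genes. Erp29 (log2 change -0.74), a thioredoxin-like chaperone, was among the falls. The collagen hydroxylase subunit P4ha1 (0.86) and the prolyl isomerase Fkbp14 (2.27) were among the rises. Among 32 genes of translocation and N-glycosylation 9 fell, with Ddost (-0.80) and Rpn2 (-0.71), subunits of the oligosaccharyltransferase, and the signal peptidase subunit Spcs3 (-0.65), while 0 rose. Rises were 0 as well at an unadjusted p under 0.05 and in DESeq2. Among 31 other degradation genes 1 fell, Rad23b (-0.54), and 0 rose, with 1 higher at an unadjusted p under 0.05 and 0 in DESeq2. Among 27 genes of ER to Golgi transport 7 fell, such as the coat proteins Sec13 (-0.63) and Sec23b (-0.56) and the cargo receptor Tmed2 (-0.61), and 0 rose (1 at an unadjusted p under 0.05, 0 in DESeq2).

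Among 49 other genes of the integrated stress response 18 fell, such as the amino acid transporter Slc7a5 (-1.39) and the serine and glycine synthesis enzymes Shmt2 (-0.92) and Psat1 (-0.66). The 3 that rose were 6.12% of the list, against a background of 12.6%. They were Sesn2 (0.92), Ddit4 (1.01) and Bbc3 (0.90), regulators of growth signalling or cell death. Among 17 other sensors and cofactors 2 rose (11.8%, against a background of 12.6%), Creb3 (0.97) and Wfs1 (1.44). Of the 17, 0 fell, with 1 lower at an unadjusted p under 0.05 and 0 in DESeq2. Among 14 mitochondrial chaperones and proteases 4 fell, such as Hspa9 (-0.54), Clpp (-0.55) and Grpel1 (-0.47), and 0 rose, also 0 at an unadjusted p under 0.05 and in DESeq2. The share that fell was 55.9% of the 34 genes, 36.7% of the stress response list, 28.6% of the mitochondrial list and 28.1% of the translocation list. It was 25.9% for ER to Golgi transport, 12.8% for other folding, 3.23% for other degradation and 0% for sensors and cofactors. Over all tested genes it was 9.58%. These differences between lists were not tested.

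**Figure D5:**
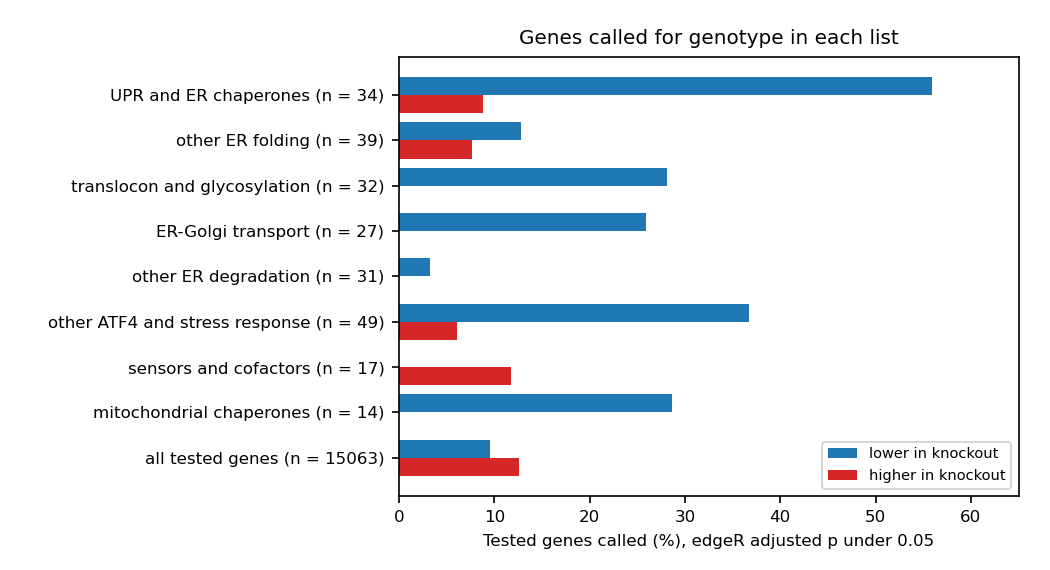
Percent of the tested genes of each pathway list, and of all tested genes, that were called lower (upper bar) or higher (lower bar) in the knockout libraries at an edgeR adjusted p under 0.05. The 34 genes have 55.9% lower and 8.82% higher, and all tested genes 9.58% and 12.6%.

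Marker lists of cell types and of dividing cells were also counted, and their sums moved in different directions. Over all tested genes 12.6% rose and 9.58% fell. The summed level of 12 neutrophil precursor markers was 1804, 1080, 1951 and 512 CPM, lowest in the ROSA-Cre knockout as were the chaperones. Of the 12, 6 fell (50%, against a background of 9.58% of tested genes), with Mpo at 696, 195, 711 and 179 CPM. Sums of 16 dividing-cell markers were 7444, 5398, 6434 and 4163 CPM, and 13 of 16 fell, Top2a, the most abundant, not among them. This share of 81.2% is above the 55.9% of the 34 genes. The sums of 12 B and plasma cell markers were 168, 115, 166 and 98.3 CPM, with Ighm lower (-0.81), Prdm1 higher (1.88), 9 of 11 tested not called, and the plasma cell gene Mzb1 at 0.18 to 0.50 CPM. Monocyte and macrophage markers summed to 134, 132, 181 and 68.3 CPM. Of 10, 2 were lower (20%), Ly6c2 (-1.07) among them, and 0 higher (0 also at an unadjusted p under 0.05 and in DESeq2). Erythroid markers split. Their sum of 57.6, 219, 126 and 344 CPM was led by Hbb-bs (3.36). Of the 12, 5 rose (41.7%, 4 globin genes and Alas2) and 4 fell (33.3%, Klf1, Car1, Ermap and Rhd), but the median log2 change was -0.19. Sums of mast cell and dendritic lists ran from 96.0 to 117 and 144 to 236 CPM, led by Prss34 and Tcf4. Those of T and NK and of endothelial lists ran from 35.0 to 91.9 and 312 to 452 CPM, led by Nkg7 and Pecam1. In each model the mast cell, dendritic and endothelial sums were higher in the knockout library, and the T and NK sum was lower. In edgeR 1 of 6 tested mast cell markers rose and 1 fell (16.7% each), and 2 of 7 dendritic markers rose (28.6%) and 1 fell (14.3%). Of 6 tested endothelial markers 2 rose (33.3%) and 0 fell. Of 2 tested T and NK markers 0 were called, with 1 lower in DESeq2. Megakaryocyte markers summed to 7554, 8156, 10448 and 7208 CPM. Of these 16 markers 4 rose (25%, background 12.6%) and 3 fell (18.8%, background 9.58%), with log2 changes from -1.36 to 2.10. Removing neutrophil, erythroid and mitochondrial genes from the TMM step and the test, which left 15029 genes, gave the same 19 falls and 3 rises. Their counts stayed in the library totals and the other RNA of such cells stayed in the test. The part of these cells in the result was not tested.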

How the data were processed

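RNA sequencing counts of 4 libraries, 1 per group, were used. The authors deposited 1 table per library of raw HTSeq read counts per Ensembl gene. Per the labels' protocols the libraries were stranded mRNA libraries. TopHat2 2.0.10, SAMtools, HTSeq, DESeq, mm10 and GRCm38 are named in the submitters' processing notes. The annotation release, the strand setting and any pooling: not given in the sources used here. Rows that name no gene, of which reads with no gene were 32.1% to 36.2% of reads with a gene, no gene or an ambiguous gene, stayed out of library sizes and tests.

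The genotype and Cre model effects were tested in edgeR 4.0.16 (R 4.3.3) with TMM, filterByExpr (minimum count 10), a model with both terms, quasi-likelihood tests and Benjamini-Hochberg adjustment over 15063 genes at 0.05. Prior degrees of freedom were 6.26 and the common biological coefficient of variation 16.1%. Each standard error was the size of the log2 fold change divided by the root of its F statistic. Ratios within a model carry 95% Clopper-Pearson intervals, and a count of 0 allows 3 counts. Intervals cover counting error only, since reads are not independent molecules. Symbols, positions and exonic lengths came from GENCODE M21, promoter windows from RefSeq. The code was tested on simulated data.

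The members and the gene lists were chosen with earlier results of these data known. All 34 members were described, with up to 3 called genes by p-value in each other pathway list, the most abundant marker of each cell type list, and Gfi1b. Mzb1, the erythroid genes other than Hbb-bs, Prdm1 and the genes with an element outside the set were chosen later, with their values known. The alternatives tried were a Wald test in DESeq2 1.42.0, its size factors in edgeR, a robust prior, the older quasi-likelihood method, no filter or a filter at a mean of 5 CPM, no other term, each library left out, no neutrophil, erythroid and mitochondrial genes, and a GC and length offset, and for ratios other scalings and a pseudocount of 5 instead of 1. No protein sequences were used here.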

Additional observations from a re-analysis of the deposited data

Results flagged for a closer look

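Ddit3 and Edem1 moved in opposite directions in the 2 Cre models. The ratio of knockout to wild-type counts of Ddit3 was 0.882 with PF4-Cre and 1.82 with ROSA-Cre. For Edem1 it was 1.15 with PF4-Cre and 0.884 with ROSA-Cre. The difference between the models was not tested, since each group holds 1 library.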

How the results depend on the processing

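The Cre model term pairs each knockout library with the wild-type library of its model, and the labels carry no replicate numbers by which to pair them otherwise. Against 19 members lower and 3 higher by genotype, the counts were 2 lower without a filter on low counts, and 0 lower and 1 higher without the Cre model term. With 1 library and the Cre model term left out, 0 to 6 members were lower and 1 to 2 higher. The other alternatives gave 16 to 19 lower and 3 to 4 higher. Ppp1r15a turned from 0.85 to -0.12 without both the PF4-Cre knockout library and the Cre model term, and its values with 1 library and that term left out ran from -0.12 to 1.85. For the Cre model effect, against 1 higher and 6 lower in ROSA-Cre, the members higher were 2 with DESeq2 size factors or a mean of at least 5 CPM, and 0 without a filter, with the older quasi-likelihood method, without the genotype term or with the GC and length offset. The members lower were 0 without the genotype term and 1 with that offset, and 5 to 9 otherwise. Over all tested genes the genotype calls were 1904 higher and 1443 lower (56.9% higher). They were 1406 and 530 without a filter (72.6% higher), 159 and 4 without the Cre model term (97.5%), and 82.1% to 90.6% higher with 1 library and that term left out. For the Cre model effect they were 1253 higher and 1570 lower, and 130 and 60 with the offset. Unless the alternative itself has fewer samples or more genes tested, the cause was not tested. Unscaled library totals moved the log2 ratios by 0.07 with PF4-Cre and 0.05 with ROSA-Cre, which is beyond the counting interval in 27 and 8 of the 34 members, and DESeq2 size factors moved 4 beyond it with PF4-Cre. The median fold of the 19 lower members then became 1.30 with PF4-Cre and 1.93 with ROSA-Cre under library totals, and all 19 were lowered more with ROSA-Cre under each scaling and pseudocount tried. Sel1l with PF4-Cre went from a log2 ratio of -0.02 to 0.05 under library totals. Depth limits Trib3 and Chac1.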
